A study of Homo sapiens with 16 samples.

Results

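The data described here are the BORIS binding sites of 2 Ewing sarcoma cell lines, TC-71 and TC-32, as intervals of the peak lists that the authors deposited for each line. An interval was taken once per distinct chromosome, start and end on chromosomes 1 to 22 and X. This gave 534 BORIS intervals in TC-71 and 6 in TC-32, out of 114213 intervals over the 6 lists of the series. Both lines are established cultures of Ewing sarcoma, a bone and soft tissue tumour. The labels place TC-32 at diagnosis and TC-71 after chemotherapy. No treatment or genetic change of the cells is given, so the groups differ by cell line and by all that comes with it. Each line had 2 BORIS and 2 input samples, whose chromatin was crosslinked with formaldehyde and sonicated. Both samples of a line share 1 list, called against the input of that line. No value therefore has a replicate error, and no test between the lines was possible.

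BORIS, the product of CTCFL, is the testis-specific paralog of the insulator protein CTCF. Both proteins bind DNA through closely related arrays of zinc fingers, and many tumours switch BORIS on outside the germ line. CTCF halts the cohesin ring and so sets the ends of chromatin loops, and SMC1 is a subunit of that ring. H3K27ac marks active promoters and enhancers. Sites are given by hg19 coordinates and cytogenetic band. Genes named with a band are background, and their overlap with a site was not tested.

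BORIS was listed at 534 places in TC-71 and at 6 in TC-32, and 2 of these were common to both lines. Depth was recovered from the lists themselves. Each listed summit carries a fold enrichment and a −log10 p. In the peak caller these follow from 2 quantities, the pileup of BORIS fragments over the summit and the background expected from input. Solving for both gave whole numbers of BORIS fragments at all 552 TC-71 summits, with an error in −log10 p of at most 0.000135. In TC-32 a single scale of 0.836, applied by the caller to bring BORIS down to the depth of input, gave whole numbers at all 6 summits. The genome-wide background then gave 22.15 BORIS tags per kb of effective genome in TC-32 and 18.1 in TC-71. Input came to 18.5 tags per kb in TC-32 and 19 in TC-71. The SMC1 list of TC-71, solved on its own, returned the same input density, with a ratio of 1.00004. For TC-32 the fragment length of the BORIS list was itself set from the SMC1 list, so that pair of densities is no separate check. BORIS tags per kb in TC-32 were 1.22 times those in TC-71 before scaling and 1.02 times after it. These depths rest on the caller's usual formula, and the part of depth in the number of intervals was not tested.

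The weakest listed intervals did not stand at the same p in both lines. The weakest TC-32 interval had a −log10 p of 9.17, while the weakest TC-71 interval had 6.63. At a −log10 p of 9.17 or more in both lists, 480 TC-71 intervals stood against 6 in TC-32. At 15 or more, 263 stood against 2, and at 20 or more, 150 stood against 1. At 27.6, the highest TC-32 value, 60 stood against 1. The TC-71 list was the longer by 60 to 150 times over these thresholds. The lowest and highest of them were values of TC-32 itself, which fixed its counts there at 6 and 1. The p also depends on depth and fragment length, which differed between the lists. An unlisted place in TC-32 is one below its threshold. At the genome-wide background, a pileup of 9.49 times the genome level reached the −log10 p of the weakest TC-32 interval. At 2.26 times that background, the median of TC-71 sites, 13.9 times reached it. That interval had a −log10 q of 2.86, while listed TC-71 summits went down to 2.04. The cutoff of the TC-32 list may therefore lie below these pileups.

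**Figure D1:**
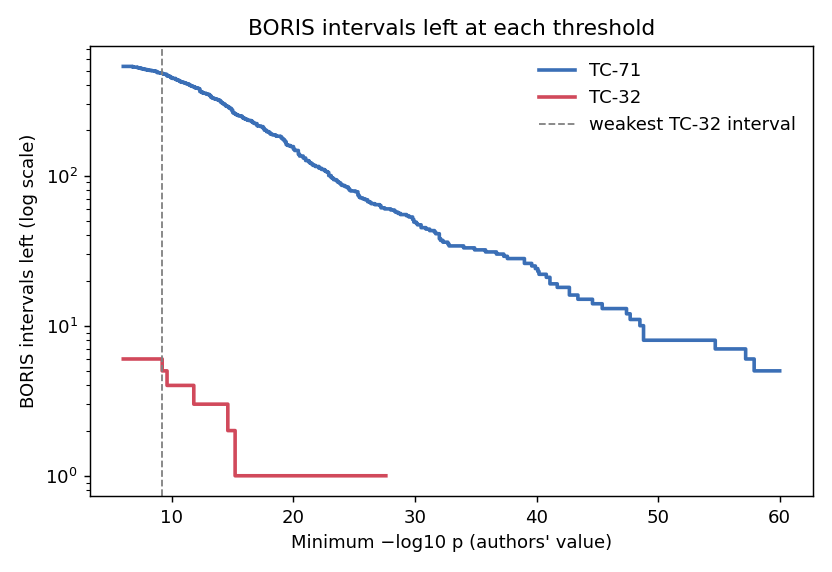
Number of BORIS intervals left (vertical axis, log scale) at each minimum −log10 p as deposited by the authors (horizontal axis), for TC-71 in blue and TC-32 in red; the dashed line is the weakest TC-32 interval. At that line 480 TC-71 intervals stand against 6.

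The 6 TC-32 intervals fell into different kinds. The highest by fold and by −log10 q lay at 17p11.2 (chromosome 17, 18967108 to 18967183, 76 bp). Its fold was 12.4, from 34 BORIS fragments over a background at the genome level. It had SMC1 in TC-32 with a fold of 9.13, no H3K27ac in either line and no SMC1 in TC-71. The nearest TC-71 BORIS summit was 8263036 bp away. The interval at 17q22 (chromosome 17, 56736475 to 56736563, 89 bp) had a fold of 7.21 from 24 fragments over 1.4 times the genome background. It was a cohesin site in both lines, with SMC1 folds of 7.86 in TC-32 and 4.08 in TC-71, and was not acetylated. The interval at 1q21.2 (chromosome 1, 147994230 to 147994329, 100 bp) had a fold of 6.07 from 16 fragments, the fewest of the 6. It lay in TC-32 SMC1 and H3K27ac and in no TC-71 list. Its nearest TC-71 BORIS summit was 604616 bp away.

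Another pair of TC-32 intervals stood on high input. At 11q12.3 (chromosome 11, 62609088 to 62609252, 165 bp) 67 fragments lay over a background of 13.9 times the genome level, and the fold was 2.85. SMC1 and H3K27ac were listed there in both lines, and the summit stood at 93.6% of the interval, next to its end. At 21p11.2 (chromosome 21, 9825844 to 9825974, 131 bp) 87 fragments lay over 17.5 times the genome background, with a fold of 2.95. This is a repeat-rich short arm of an acrocentric chromosome. Both had the lowest folds and the largest pileups of the list.

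The 2 intervals common to both lines differed in the same way. The 21p11.2 interval of TC-71 (9825833 to 9826006, 174 bp) held 130 fragments over 32.1 times the genome background, the highest at the leading summit of any TC-71 interval, and its fold was 2.59. The summits of the lines were 84 bp apart. A second TC-71 interval at 21p11.2 (9826860 to 9827083, fold 3.18, background 16.7 times the genome level) lay 962 bp from the first. Its second summit held 154 fragments with a fold of 1.87. No SMC1 or H3K27ac interval of either line covered these places. The other common site was at 12q21.31, where the TC-32 interval (chromosome 12, 82752200 to 82752289, 90 bp) held 22 fragments and the TC-71 interval (82752224 to 82752385, 162 bp) held 36. Relative to the genome level the pileups were 13.4 in TC-32 and 23.4 in TC-71, the backgrounds 2.21 and 3.71, and the folds 4.81 and 5.51. The summits were 63 bp apart. TC-71 had a further interval 317 bp on (82752536 to 82752707, fold 5.10), which was not listed in TC-32. H3K27ac covered the common interval in both lines, with folds of 7.22 in TC-32 and 7.37 in TC-71. SMC1 was listed at the common interval in TC-32 and not in TC-71. At the further TC-71 interval 317 bp on, SMC1 was listed in both lines, with folds of 12.9 in TC-32 and 4.37 in TC-71.

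**Figure D2:**
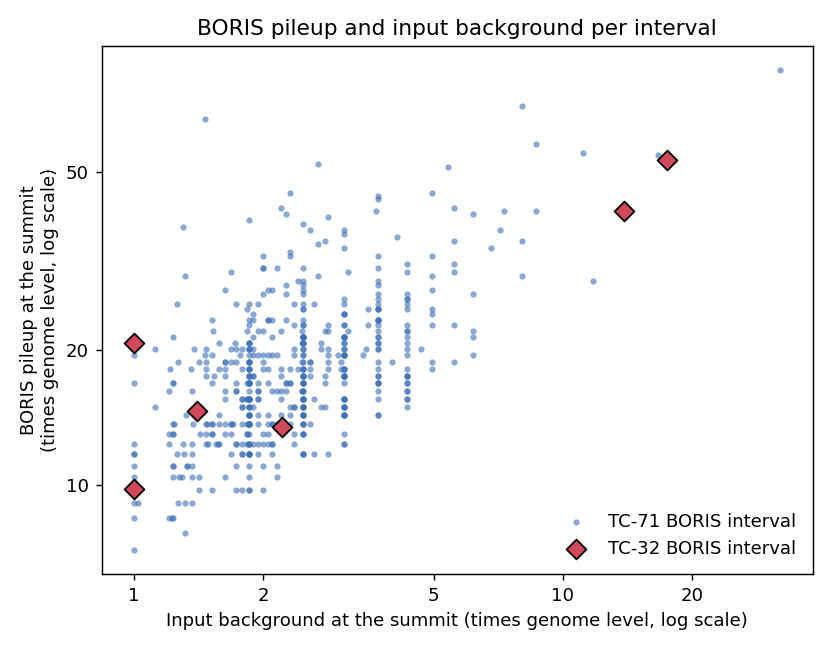
BORIS pileup at the summit against the input background, both as multiples of the genome level of the same line and on log scales; each blue point is 1 of 534 TC-71 intervals and each red diamond 1 of 6 TC-32 intervals. Of the 6 diamonds 2 lie at a background of 13.9 and 17.5 times the genome level, where few TC-71 intervals lie.

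Among TC-71 intervals such high backgrounds were rare. The background was over 5 times the genome level at 24 of 534 (4.49%, 2.90 to 6.61%) and at 2 of 6 in TC-32 (33.3%, 4.33 to 77.7%). Counting error alone is covered by these intervals. At the other end, 10 TC-71 intervals (1.87%) and 2 TC-32 intervals had a background at the genome level. The median TC-71 interval held 27 fragments, with a range of 11 to 130, which is 17.5 times the genome level. Its background was 2.26 times the genome level. At TC-71 SMC1 peaks, measured against the same input over longer fragments of 126 bp, the median background was 2.08 times. The background is the largest of several windows in the caller's usual settings, which places it above the genome level by construction.

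Fold in the TC-71 list had a median of 5.98, quartiles of 4.99 and 7.48 and a range of 2.36 to 31.4. The TC-32 folds of 2.85 to 12.4 lay inside that range, and 12 TC-71 intervals were above the highest of them while 2 were below the lowest. Across the 534 intervals, which share libraries and depth, fold fell with background (Spearman −0.46) and pileup rose with it (0.52). Background is the divisor of fold, and a site on a higher background needs a larger pileup to be listed, so both signs follow in part from how the list is made. Rank by fold and rank by pileup picked different sites. The site at 7q22.1 (chromosome 7, 102213023 to 102213211) had 108 fragments, 70.1 times the genome level, and a fold of 8.15 over a background of 8.03 times. The site at 9q34.13 (chromosome 9, 134615495 to 134615651) had 58 fragments and a fold of 19.7 over a background of 1.3 times. The former lay in H3K27ac of both lines and in SMC1 of TC-32 only, and the latter was a cohesin site of both lines with no H3K27ac.

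Of the 20 TC-71 intervals with the highest −log10 q, 8 were also among the 10 with the highest fold. The 2 highest folds outside those 20 were at 9q34.11 (chromosome 9, 131769125 to 131769309, fold 13.6, 39 fragments) and 14q24.3 (chromosome 14, 74225106 to 74225284, fold 13.09, 46 fragments). Both were SMC1 sites in both lines, with SMC1 folds of 7.32 and 4.91 in TC-32 and of 7.22 and 6.65 in TC-71, and neither was acetylated. Further sites of the 20 were at 16p13.3 (chromosome 16, 1756038 to 1756222, fold 15.8) and 15q26.3 (chromosome 15, 102192528 to 102192757, fold 14.1), both acetylated in both lines. The site at 11q12.1 (chromosome 11, 58347134 to 58347314) had a fold of 12.5 and 59 fragments. A site at 14q11.2 had 11.5 and 61 (chromosome 14, 21571797 to 21571958), and one at 22q11.21 had 10.1 and 67 (chromosome 22, 20104593 to 20104806). None of these 3 had SMC1 in TC-71, and all were acetylated there with folds of 7.70 to 8.38. Of all 20, 10 had SMC1 and 18 had H3K27ac in TC-71, against 64% and 56.7% of all sites.

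Chromosome 8 stood apart by its background. Its 22 BORIS sites in TC-71 had a median background of 4.33 times the genome level, against 2.21 at the 512 sites elsewhere, and 9 of the 24 high-background sites lay there. The median pileup was 24.7 times the genome level on chromosome 8 and 17.5 elsewhere, while the median fold was 4.81 against 6.02. At SMC1 peaks of chromosome 8 the median background was 2.5 times in TC-71, the same as on chromosome 17. In TC-32 it was 2.35 times, below the 2.38 of chromosome 1. Copy number was not analysed here, and its part in these values was not tested.

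Width came next. TC-71 intervals had a median width of 121 bp and quartiles of 99 and 151 bp. The narrowest were 85 bp, the fragment length recovered for that list, and 32 intervals had this width. The TC-32 widths were 76, 89, 90, 100, 131 and 165 bp, over a recovered fragment length of 74 bp. In TC-71, 81 intervals (15.17%, 12.23 to 18.5%) reached 2 fragment lengths or more, as did 1 of 6 in TC-32. Wider intervals had larger pileups (Spearman 0.60 over 534) and higher folds (0.36). Width depends on depth and on fragment length, so the widths of the lines are set side by side only.

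Summits lay near the middle of most TC-71 intervals and were more spread over the 6 TC-32 intervals. The median position was 50% of the width in TC-71, with 10th and 90th percentiles of 38.7% and 61.4%. In TC-32 the median was 50.5%. The summit was within 20% of an end in 10 TC-71 intervals (1.87%, 0.902 to 3.42%) and in 3 of 6 TC-32 intervals (50%, 11.8 to 88.2%). Of the 10 in TC-71, 5 had several summits. The 3 in TC-32 were at 1q21.2, 11q12.3 and 21p11.2, at 17.5%, 93.6% and 8.78% of the width. Those at 11q12.3 and 21p11.2 were the intervals on high input, 13.9 and 17.5 times the genome level. The exact intervals do not overlap, but intervals of a list are not replicates of a line, and no test was made.

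**Figure D3:**
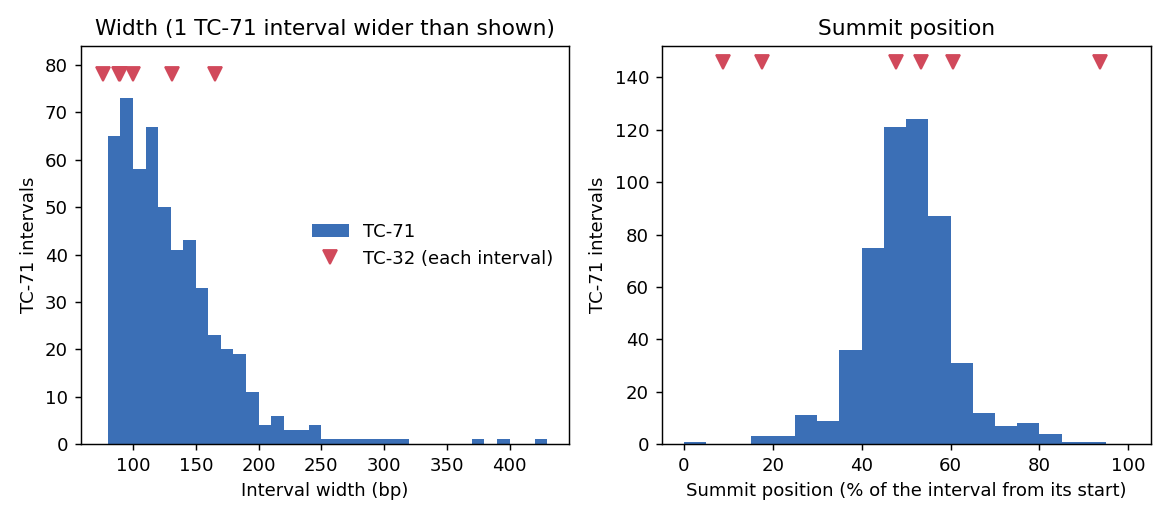
Left, widths in bp of TC-71 BORIS intervals as a histogram, with each TC-32 interval as a red triangle (those of 89 and 90 bp overlap); right, summit position as a percentage of the interval from its start. TC-71 summits gather around 50%, while 3 of the 6 TC-32 summits lie at 8.78%, 17.5% and 93.6%.

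The widest TC-71 interval, at 19p13.3 (chromosome 19, 605157 to 605921), was 765 bp long and was the only one with 4 summits. From left to right these held 70, 101, 64 and 71 fragments, with folds of 21.9, 31.4, 20.2 and 14.97. The distances between them were 113, 131 and 218 bp. All 4 summits had more than 40 times the genome level of BORIS fragments over a background of 1.44 to 2.47 times. It was one of 27 TC-71 BORIS intervals that overlapped no SMC1 or H3K27ac interval of either line. Among these 27 it was also the highest by fold, and the median fold of the 27 was 6.02. The remaining wide intervals were at 16p13.3 (426 bp), 3q21.3 (391 bp), 14q32.33 (377 bp) and a second place at 19p13.3 (310 bp).

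Several summits in an interval were uncommon, with 16 of 534 intervals (3.00%), of which 15 had 2 summits. The 18 distances between neighbouring summits had a median of 131.5 bp and a range of 45 to 239 bp. Of the 16 intervals, 11 had SMC1 in TC-71, 10 had SMC1 in TC-32 and 10 had H3K27ac in TC-71. Over all 534 intervals these shares were 64%, 74% and 56.7%. The interval at 16p13.3 (chromosome 16, 2390663 to 2391088) had summits 148 bp apart with folds of 10.4 and 9.34. It lay on strong cohesin sites, with SMC1 folds of 26.9 in TC-32 and 17.8 in TC-71. At 3q21.3 (chromosome 3, 128336389 to 128336779) the summits were 239 bp apart, with folds of 9.13 and 7.07 over acetylated chromatin without SMC1 in either line. Of SMC1 intervals, 0.996% in TC-71 and 4.11% in TC-32 had several summits. No TC-32 BORIS interval had more than 1.

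Most BORIS sites of TC-71 had no other site within 100 kb. The median distance to the nearest other site was 843 kb, with quartiles of 232 and 2436 kb. A neighbour lay within 100 kb for 80 sites (15%, 12.1 to 18.3%) and within 10 kb for 22 (4.12%, 2.60 to 6.17%). The 534 SMC1 peaks of TC-71 with the highest −log10 q, a list of the same length, had a neighbour within 100 kb for 87 (16.3%, 13.26 to 19.7%) and within 10 kb for 20 (3.75%, 2.30 to 5.73%). At both distances the counting intervals of BORIS and SMC1 overlap. The median distance was 675 kb in that SMC1 list and 559 kb between midpoints of the 534 highest-ranked H3K27ac domains. Within 1 kb the counts were 12 BORIS sites (2.25%, 1.17 to 3.89%) and 2 SMC1 peaks (0.375%, 0.0454 to 1.35%). The whole SMC1 list of 18264 peaks had 2.55% within 1 kb. TC-71 SMC1 intervals had a median width of 186 bp over fragments of 126 bp, against 121 and 85 bp for BORIS. The part of width in the counts within 1 kb was not tested.

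**Figure D4:**
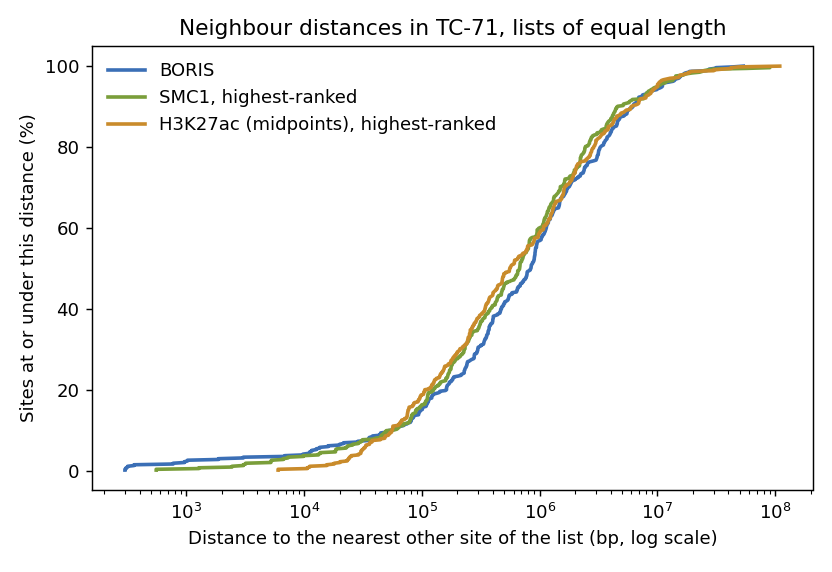
Cumulative share of sites (%) by distance to the nearest other site of the same TC-71 list (bp, log scale), for 534 BORIS sites and for the 534 highest-ranked SMC1 peaks and H3K27ac domains (measured from midpoints). The curves run close together above 100 kb, and the BORIS curve starts at the shortest distance, 300 bp.

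The 12 sites with a neighbour within 1 kb formed 6 pairs. At 11q13.1 (chromosome 11, 64781419 to 64781627 and 64781705 to 64781887) the summits were 300 bp apart, with folds of 7.93 and 10.4. At 2q21.1 (chromosome 2, 132249949 to 132250062 and 132250261 to 132250442) they were 307 bp apart, with folds of 7.26 and 8.26. In 4 of the 6 pairs SMC1 was listed in TC-71 at 1 of the sites only, and in 1 pair at both. This was 6 of the 12 sites (50%), against 64% of all TC-71 sites. The pair at 11q13.1 was acetylated throughout, with SMC1 at the first site in TC-71 and at both in TC-32. The others were the pair at 12q21.31, 2 pairs at 14q32.33 with summits 359 and 771 bp apart, and the pair at 21p11.2.

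Joining intervals up to 100 kb apart gave 37 clusters that held 80 sites, with no cluster above 3 sites and 6 that reached 3. The tightest of these 6 was at 14q11.2 (chromosome 14, 23525502 to 23538305), with 3 sites over 12.8 kb. Their folds were 5.15, 4.99 and 5.26, and all 3 had SMC1 in both lines and no H3K27ac in either. The band holds the T-cell receptor alpha genes, among others. The cluster at 5q35.3 (chromosome 5, 176882447 to 176918725, 36.3 kb) had folds of 7.96, 5.82 and 6.24, again with SMC1 at all 3 sites in both lines. The cluster at 19q13.2 (chromosome 19, 39340536 to 39421254, 80.7 kb) had folds of 7.49, 7.78 and 15.3 and H3K27ac at all 3. The remaining 3 were at 19q13.42, 11q13.1 and 1q23.1, and the last of these had no H3K27ac in either line. Sites with and without a neighbour within 100 kb had median folds of 6.36 and 5.91, and SMC1 in TC-71 at 68.8% and 63.2%.

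A looser group ran along 14q32.33, the band of the immunoglobulin heavy chain genes. Of its 9 sites, 7 lay between 106626915 and 107239816 on chromosome 14, a stretch of 613 kb. Their widths ran from 87 to 377 bp with a median of 141 bp, their folds from 4.37 to 8.73, and their pileups from 19 to 41 fragments. SMC1 was listed at 6 of the 7 in TC-71 and at 0 in TC-32, and H3K27ac at 0 in both. Over all TC-71 BORIS sites, SMC1 was listed at 64% in TC-71 and at 74% in TC-32, and H3K27ac at 56.7% and 56.6%. This stretch was chosen once its values were known.

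Sites were spread over 284 of the 851 bands, 168 of which held 1 site, and the 21 bands with 5 or more held 136 sites (25.5%). The share of the BORIS list was above the share of the whole SMC1 list on 10 of 23 chromosomes and below it on 13. Chromosome 16 held 38 sites, 7.12% of the list and 2.28 times its share of TC-71 SMC1 peaks. Chromosome 19 held 40 sites, 7.49% and 1.86 times. Chromosomes 22, 14 and 12 followed with 1.59, 1.47 and 1.41 times. Chromosome X held 4 sites, 0.749% and 0.381 times, and chromosomes 18, 10 and 4 held 0.564, 0.574 and 0.582 times their SMC1 share. Some of these directions depended on the SMC1 list. Beside the 534 highest-ranked SMC1 peaks, chromosomes X, 18 and 4 held larger BORIS shares. These were 0.749%, 1.12% and 2.81% against 0.375%, 0.562% and 1.69%. Chromosome 14 held a smaller one, 5.43% against 5.99%. Chromosomes 16, 19, 22, 12 and 10 kept their direction. Over the 23 chromosomes the number of BORIS sites per Mb followed that of SMC1 peaks (Spearman 0.79) and of H3K27ac domains (0.80). Chromosomes share gene density and base composition, and the relation is a description.

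**Figure D5:**
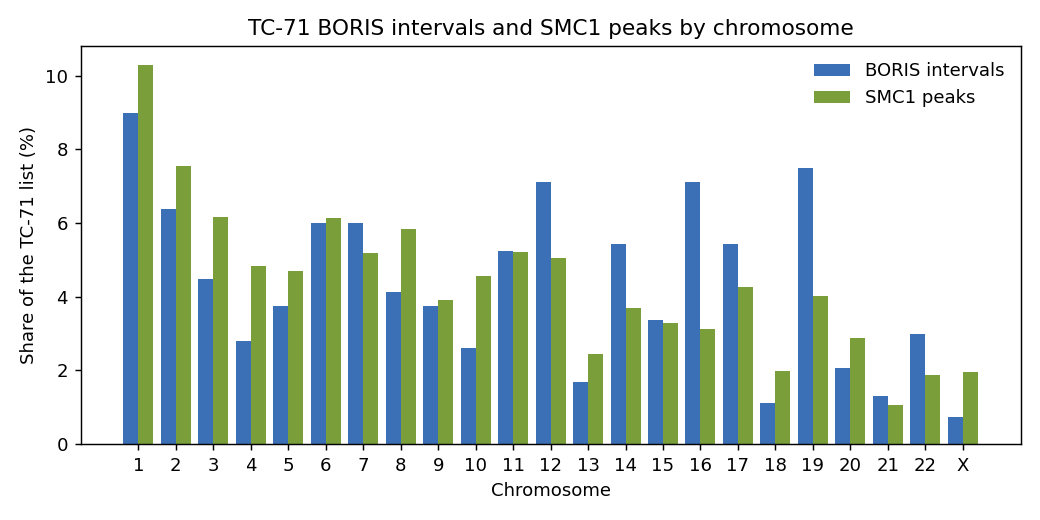
Share of the TC-71 list (%) on each chromosome, for 534 BORIS intervals (blue) and 18264 SMC1 peaks (green). Chromosomes 16 and 19 hold 7.12% and 7.49% of the BORIS intervals against 3.12% and 4.02% of the SMC1 peaks.

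By band staining the TC-71 sites fell mostly in Giemsa-negative bands, the gene-rich part of the chromosome arms. These held 360 sites (67.4%, 63.3 to 71.4%) and make up 42.4% of the sequence. The SMC1 list of equal length had 67.0% there (62.9 to 71%) and the H3K27ac list of equal length 67.2% (63.1 to 71.2%). The 3 shares lay within the counting error of each other. Of the 6 TC-32 sites, 1 lay in a Giemsa-negative band.

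Bands of genes tied to BORIS, to cohesin looping or to Ewing sarcoma were looked up whatever they held. No TC-32 BORIS site lay in any of these 16 bands, but the 6 sites of that line could reach at most 6 of all 851 bands. In TC-71, 0 sites lay in 20q13.31, the band of CTCFL itself, and 0 in Xq28, which holds MAGEA cancer-testis genes. Likewise 0 lay in 17q21.32 (HOXB), 5q31.3 (clustered protocadherins) and 7q21.12 (the drug efflux pump gene ABCB1). These 5 bands held 15, 40, 58, 48 and 12 TC-71 SMC1 peaks in the same order. Of all 851 bands, 567 (66.6%) held no TC-71 BORIS site, and the whole list had 2.92 sites per 100 SMC1 peaks. A band with 0 was thus common over all bands. The share was not worked out for bands with as many SMC1 peaks as these. The band of CTCF, 16q22.1, held 4 sites with folds of 4.77 to 6.94. The bands of EWSR1 (22q12.2) and FLI1 (11q24.3), the partners of the common Ewing fusion, held 2 each, at 3.48 and 5.56 and at 6.48 and 5.70.

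The bands of other developmental and imprinted genes were unequal. The HOXC band, 12q13.13, held 8 sites between 51984637 and 54785298, of which 7 had SMC1 in TC-71 and 3 H3K27ac, with folds of 4.86 to 9.39. Over all TC-71 sites SMC1 was at 64% and H3K27ac at 56.7%. The HOXA band (7p15.2) held 1 site with a fold of 5.07, and the HOXD band (2q31.1) held 2, with folds of 5.80 and 3.39. In 11p15.5, the band of the imprinted genes IGF2 and H19, there were 4 sites with folds of 6.48, 3.43, 3.14 and 10.1. The last of these (chromosome 11, 1968465 to 1968594) had 28 fragments over 1.21 times the genome background and lay in H3K27ac of both lines and in SMC1 of TC-32 only. In 16p13.3, which holds the alpha globin genes, 12 sites had a median fold of 8.76 and a highest of 15.8, and 9 had SMC1 in TC-71, against 64% of all sites. The histone gene band 6p22.2 held 1 site (chromosome 6, 26924717 to 26924900, fold 6.66), with SMC1 and H3K27ac in both lines.

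Pileup differed with the marks at the site more than fold did. At the 140 TC-71 sites with H3K27ac and no SMC1 the median pileup was 19.5 times the genome level, and at the 163 with both it was 18.8. It was 15.6 at the 179 with SMC1 alone and 14.6 at the 52 with neither. The backgrounds followed, with medians of 2.47, 2.47, 1.94 and 1.85 times the genome level in the same order. The median folds were closer, at 6.4, 5.86, 5.96 and 5.99. The quartiles of pileup overlapped between all 4 classes, at 16.2 to 24.7, 15.6 to 22.7, 13.0 to 19.5 and 12.3 to 18.8. Widths had medians of 130.5, 124, 115 and 109 bp.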

How the data were processed

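The tools in the submitters' processing notes are MACS2 2.1.1, deepTools 2.2.4, Picard, SAMtools 1.3.1 and STAR 2.5.1b, with the build hg19. No role or setting is stated there. How replicates were combined is not given in the sources used here. The authors deposited, per interval, a score, a fold enrichment over input (a ratio), and a −log10 p and −log10 q, with a summit in narrow lists. An interval with several summits is given by its leading one, that of highest −log10 q.

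Pileup k and background λ were solved from the deposited fold, (k + 1)/(λ + 1), and from the Poisson probability of more than k at λ, which is how MACS2 usually forms both. Only this form of the tail, more than k, was used. All 552 TC-71 BORIS summits, all 6 of TC-32 and 3000 summits spread evenly over each SMC1 list by p matched within 0.0005, in −log10 p for TC-71 and in distance from a whole multiple of the scale for TC-32. Genome level means the smallest background of a list. Tag densities divide it by the fragment length, which was the narrowest interval for 3 lists. For TC-32 BORIS it followed from the input density of the SMC1 list. Whether duplicates were removed is not given, so tags need not be independent molecules.

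Overlap meant 1 bp or more. Clopper-Pearson 95% intervals cover counting error only. Bands came from circlize 0.4.16. The gene and promoter tables given are of GRCh38, so no gene was assigned and no sequence printed. Named sites follow a rule by rank, width, spacing and band, and the text names a part. The sites, bands and lists were chosen with earlier results of these data known. The recovery of pileups, the equal p, the limits of 5 times background and 20% of the width, the H3K27ac list of equal length, and the looks at chromosome 8, 14q32.33 and sites in no other list were added after seeing the data. Code was tested on simulated data. Python 3.11.15, numpy 2.4.6, pandas 2.3.3, scipy 1.17.1, matplotlib 3.10.9 and R 4.3.3 were used.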

Additional observations from a re-analysis of the deposited data

How the results depend on the processing

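No paired analysis was possible because the deposited lists hold no values per replicate, so no replicate could be left out either. Among 51 alternative values 38 stayed within 1.5 times the main count or within the interval of the main value, and 13 moved. Some of those that stayed could not move. Neither BORIS list held an interval on any further chromosome. The equal −log10 p was the lowest of TC-32, which fixed the TC-32 count at 6. Requiring 5 or more in −log10 q kept 3 TC-32 intervals, a ratio of 153 TC-71 intervals per TC-32 interval, 1 shared interval in each line, and a median TC-71 fold of 6.28. With 50% of the interval covered, 1 TC-71 interval was shared. Leaving out backgrounds over 5 times the genome level also left 1 shared interval in each line, and 510 TC-71 against 4 TC-32 intervals. Counting every listed summit put 9.96% of TC-71 sites within 10 kb of a neighbour and 20.3% within 100 kb, since summits of 1 interval are then neighbours, and merging within 1 kb put 1.52% within 10 kb. Clusters joined at 10 kb and 1 Mb held 22 and 303 sites. The equal −log10 p and the background filter were chosen after seeing the data. Recovered depth rests on the smallest background of each list and on the caller's usual formula.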
